A study of Mus musculus with 16 samples.

Results

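The S100 genes described here encode small calcium-binding proteins. The 8 members, out of 50600 genes counted, were chosen by a list of symbols that drew on measured values: read levels (CPM) and the share of Cast reads in all 12 clones, the genes of the cluster on chromosome 3 beside S100b on chromosome 10, the opposite monoallelic values of S100a10, and the shift of chromosome 3 in the astrocyte clone G4. Those values are therefore given as a description. The only test of them given below compares the libraries of each clone measured in 2 libraries, and nothing about the members is read from it. The members are S100b, S100a1, S100a4, S100a6, S100a10, S100a11, S100a13 and S100a16, and all 8 passed the filter on low counts.

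S100 proteins bind calcium through EF-hand loops, form dimers, and then attach to target proteins such as annexins, kinases, myosins and p53. Some are also released from cells and act on the receptor for advanced glycation end products. S100b is widely used as a marker of astrocytes, and S100a10 is the family member whose loops no longer bind calcium and which forms a complex with annexin A2 at the plasma membrane.

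RNA was measured by allele-specific RNA-seq in F1 hybrid mouse cells whose maternal genome is 129/Sv (129 below) and whose paternal genome is Cast/EiJ (Cast below). Neural progenitor cell (NPC) clones were picked as colonies from differentiated embryonic stem cells and kept in EGF and FGF2 (10 ng/mL each). Astrocytes were made from NPC clones during 48 h with BMP4 (10 ng/mL) and FGF2 (1 ng/mL). The 16 libraries came from 12 clones: astrocytes of the 5 clones 129, C2 and G4 (female) and mC3 and mE6 (male), NPCs of the 3 clones F5 (female), mG2 and mG6 (male), and NPCs of 4 further clones, all male, named Ch3, Ch5, Ch7 and Ch8, each measured in 2 libraries. The Ch libraries were depleted of ribosomal RNA and the other 8 were enriched for poly(A), so levels were compared only among the 8. "129" is the name of a clone as well as of the maternal strain; Astro_129 below means the clone. Each clone counts as a replicate, and among these 16 libraries no clone is present both as NPCs and as astrocytes, so the groups are compared between clones and never within a clone.

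Reads on genes numbered 78257443 to 93963293 in the astrocyte libraries, 69925081 to 105892734 in the poly(A) NPC libraries and 20871111 to 30920672 in the Ch libraries. Between 33.4% and 34.8% of them carried an allele in astrocytes, 30.5% to 31.8% in poly(A) NPCs and 18.9% to 21.1% in the Ch libraries. Levels are CPM scaled by TMM factors, with the Ch libraries scaled apart. The allelic expression ratio is the share of Cast reads among reads assigned to an allele, in percent, for genes with at least 20 such reads. A ratio under 15% or over 85% is called monoallelic, one from 35% to 65% biallelic, and any other biased. Brackets after a ratio give the 95% Wilson interval, that is the uncertainty from the number of reads alone.

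Markers of the labelled cell types were checked first. By edgeR's quasi-likelihood test on the 5 astrocyte and 3 poly(A) NPC libraries, 3 of 10 astrocyte markers rose in astrocytes, with Gfap at a log2 fold change of 8.45 ± 1.55 (SE, adjusted p = 0.0067), and Aqp4 and Slc1a2 were the others. Aldh1l1 of the same list fell (log2 fold change -1.55 ± 0.45, adjusted p = 0.037). All 3 proliferation markers fell, as did Nes, Olig2 and Egfr among 7 progenitor markers, and Mki67 gave -8.43 ± 0.59 (SE, adjusted p = 7.8e-05). Among lists of other cell types, 0 of 4 oligodendrocyte lineage markers tested were called, Snap25 rose among 4 neuronal markers, and Pou5f1 fell among 2 pluripotency markers. Of all 18192 genes, 12.97% rose and 12.55% fell, so counts as small as these say little about a list. The astrocyte list summed to 4156, 1866, 3835, 4608 and 4544 CPM in Astro_129, C2, G4, mC3 and mE6 and to 1521, 1918 and 1178 CPM in F5, mG2 and mG6, so that Astro_C2 lay within the NPC range.

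Some markers of cell types not named in the labels were higher in the astrocyte libraries. Tmem119 rose among 3 microglia and macrophage markers tested, and the list summed to 9.63, 10.3, 24.0, 6.14 and 9.26 CPM in Astro_129, C2, G4, mC3 and mE6, against 2.56, 3.06 and 3.14 CPM in the NPC clones F5, mG2 and mG6. Tmem119 was its most abundant gene over the 8 libraries together. Cd68, which was not called, was higher than Tmem119 in Astro_129 (4.30 against 3.51 CPM) and made up most of the NPC sums, at 2.25, 2.70 and 2.55 CPM. Cx3cr1, Aif1 and Ptprc stayed at or below 0.07 CPM in these 8 libraries. Col1a1 and Tagln rose among 6 fibroblast and mesenchymal markers, a list that summed to 20.5, 227, 41.9, 37.2 and 5.03 CPM in the same order of astrocytes and to 4.18, 12.9 and 7.40 CPM in the NPCs. Col1a1 was the most abundant of it over the 8 libraries together. Col3a1 of the same list was higher in value in the NPCs, at 0.938, 9.65 and 3.99 CPM against 0.155 to 1.957 CPM in astrocytes, and was the most abundant of the list in mG2 and mG6; it was not called. Col1a2 was at or below 0.074 CPM. Kdr and Pecam1 rose among 2 endothelial markers, with sums of 18.2, 105, 72.7, 22.03 and 23.8 CPM in astrocytes and 0.938, 2.96 and 1.33 CPM in NPCs; Kdr was the most abundant and Cdh5 was at or below 0.27 CPM. The part of these lists in the S100 values was not tested. In bulk samples, fewer cells of a type and less RNA per cell cannot be told apart.

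On the mouse build GRCm38, 7 of the 8 members lie on chromosome 3 in a pair of blocks. The first block holds S100a1 (ENSMUSG00000044080.9, chr3:90511034-90514330), S100a13 (ENSMUSG00000042312.9, chr3:90514233-90524581), S100a16 (ENSMUSG00000074457.10, chr3:90537254-90543151), S100a4 (ENSMUSG00000001020.8, chr3:90603770-90606045) and S100a6 (ENSMUSG00000001025.8, chr3:90612894-90614414), and spans 103381 bases. The second begins 2906082 bases further on and holds S100a11 (ENSMUSG00000027907.4, chr3:93520496-93526288) and, 28829 bases after it, S100a10 (ENSMUSG00000041959.14, chr3:93555117-93564645). S100b (ENSMUSG00000033208.7, chr10:76253836-76261319) is alone on chromosome 10. S100a1 and S100a13 overlap at their ends and are read from opposite strands; the counting used strand. S100a11 has a pseudogene on another chromosome, so its counts are uncertain to the extent that reads were shared with it.

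Start regions are shown for S100b, the member outside the cluster, S100a11, the neighbour of S100a10, S100a13, whose window shares 204 bases with that of S100a1, and S100a4, which has the largest fold change below. Each is the reference sequence from RefSeq (GRCm38.p6), 250 bases before to 50 bases after a start, 5′ to 3′ on the gene's strand, with the dinucleotide CG and the motif TATAAA (on either strand) in capitals; 7 of 8 members matched an entry. The member without an entry is S100a10, so its start region could not be shown. The alleles of 129 and Cast were not used here. The windows are chr10:76253586-76253885, plus strand, for S100b, and chr3:93520246-93520545, chr3:90514185-90514484 and chr3:90603520-90603819, all plus strand, for S100a11, S100a13 and S100a4.
S100b: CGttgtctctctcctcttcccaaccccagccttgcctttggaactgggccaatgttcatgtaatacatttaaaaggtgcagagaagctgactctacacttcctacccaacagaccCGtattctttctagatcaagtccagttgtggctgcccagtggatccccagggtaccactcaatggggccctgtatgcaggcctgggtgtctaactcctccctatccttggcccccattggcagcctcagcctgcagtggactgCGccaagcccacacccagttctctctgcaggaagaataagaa
S100a11: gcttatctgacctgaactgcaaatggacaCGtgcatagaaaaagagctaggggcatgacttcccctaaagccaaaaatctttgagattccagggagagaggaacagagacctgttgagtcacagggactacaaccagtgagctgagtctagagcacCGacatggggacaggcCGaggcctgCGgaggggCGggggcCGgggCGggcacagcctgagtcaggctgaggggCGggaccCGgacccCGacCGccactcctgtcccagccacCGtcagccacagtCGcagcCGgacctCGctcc
S100a13: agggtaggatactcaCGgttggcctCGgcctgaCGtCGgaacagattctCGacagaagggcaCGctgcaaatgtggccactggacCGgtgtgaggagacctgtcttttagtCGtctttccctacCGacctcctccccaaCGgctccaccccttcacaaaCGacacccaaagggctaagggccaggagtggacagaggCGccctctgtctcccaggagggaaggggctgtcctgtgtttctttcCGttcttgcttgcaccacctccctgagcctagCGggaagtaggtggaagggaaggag
S100a4: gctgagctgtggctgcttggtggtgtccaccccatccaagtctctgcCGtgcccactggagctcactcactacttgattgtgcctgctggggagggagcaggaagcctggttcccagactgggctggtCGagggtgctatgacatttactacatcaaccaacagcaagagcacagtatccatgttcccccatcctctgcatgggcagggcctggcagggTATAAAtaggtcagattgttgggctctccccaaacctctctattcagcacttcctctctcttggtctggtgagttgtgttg
The windows differ in base composition. CG occurs 15 times in that of S100a11, 14 times in that of S100a13, 3 times in that of S100b and 2 times in that of S100a4, against a median of 7 in 32851 such windows. The motif GGGCGG, on either strand, was found 3 times for S100a11 and 0 times for the other 3, and 35.7% of all windows hold it. TATAAA was found for S100a4, and 13.6% of all windows hold it on either strand. These are matches of letters in the window.

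The members covered a wide range of levels. Per kilobase of exon, the median over the 5 astrocyte libraries was 101 CPM per kb for S100a11, 81.1 for S100b, 35.3 for S100a10, 25.6 for S100a16, 14.1 for S100a13, 1.71 for S100a4, 0.493 for S100a6 and 0.463 for S100a1. In this order, neighbours overlapped in their ranges over libraries except S100a13 and S100a4 (lowest S100a13 value 7.49, highest S100a4 value 2.32) and S100a4 and S100a6 (lowest 1.23, highest 0.828). In the 3 poly(A) NPC libraries the order by median per kb was S100a11 (79.9), S100b (41.6), S100a10 (37.8), S100a16 (5.601), S100a13 (2.72), S100a6 (0.225), S100a1 (0.195) and S100a4 (0.0839), so that S100a4 was sixth in astrocytes and last in NPCs. Here the ranges of neighbours did not overlap between S100a11 and S100b, between S100a10 and S100a16, and between S100a13 and S100a6.

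**Figure D1:**
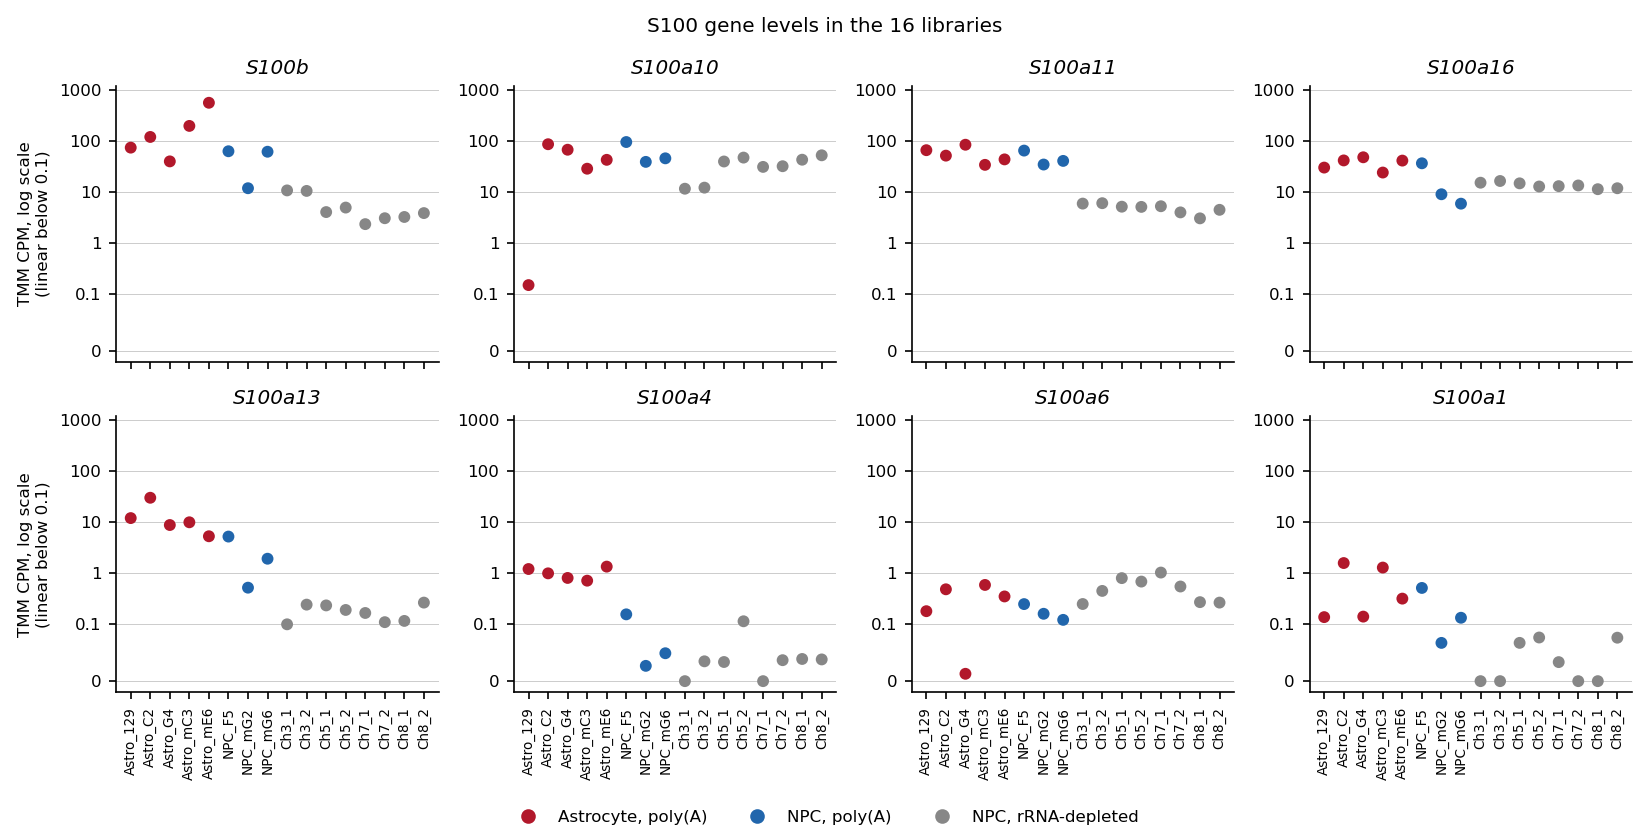
Levels of the 8 S100 genes in each of the 16 libraries, in TMM-scaled CPM on a log axis that is linear below 0.1; red, astrocytes; blue, poly(A) NPCs; grey, NPC libraries depleted of ribosomal RNA, which were scaled apart. All 5 astrocyte points of S100a4 lie above the 3 poly(A) NPC points, and S100a10 in Astro_129 lies at 0.150 CPM.

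S100b, the astrocyte marker of the family, was at 74.3, 120, 39.9, 198 and 563 CPM in Astro_129, C2, G4, mC3 and mE6. In the NPC clones F5, mG2 and mG6 it was at 63.1, 11.9 and 61.7 CPM. The groups overlapped through G4, which was below F5 and mG6, and mE6 was the highest of all. The mean was 199 ± 212 CPM (SD, n = 5) in astrocytes and 45.6 ± 29.2 CPM (SD, n = 3) in NPCs, a log2 fold change of 2.13 ± 0.94 (SE), which was 1.21 without mE6. In the Ch clones, on their own scale, the means of the 2 libraries were 10.7 CPM in Ch3, 4.51 in Ch5, 2.71 in Ch7 and 3.56 in Ch8.

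S100a4, which binds non-muscle myosin and is known from cell motility, was at 1.22, 1.00, 0.816, 0.722 and 1.36 CPM in the same astrocytes and at 0.158, 0.0270 and 0.0492 CPM in F5, mG2 and mG6. The level was low throughout, from 57 to 123 reads in an astrocyte library and 2 to 17 reads in an NPC library. Its log2 fold change was 3.66 ± 0.63 (SE), the largest of the 8 members. S100a13, which takes part in the release of fibroblast growth factor 1, was at 12.2, 30.5, 8.90, 10.1 and 5.36 CPM in astrocytes and 5.28, 0.526 and 1.94 CPM in NPCs, a log2 fold change of 2.37 ± 0.83 (SE). The lowest astrocyte value (mE6) and the highest NPC value (F5) differed by under 0.1 CPM. S100a4 and S100a13 were the 2 of 8 members in which all astrocyte libraries were above all NPC libraries, against 16.44% of 18192 genes, and 0 members were lower in this way, against 16.25%; nothing is read from these counts, since these values chose the members.

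S100a10, the partner of annexin A2, was at 0.150 CPM in Astro_129 (14 reads) and at 86.7, 67.6, 28.7 and 42.8 CPM in the astrocytes C2, G4, mC3 and mE6. The NPC clones F5, mG2 and mG6 had 95.7, 39.1 and 45.9 CPM. C2, G4 and mE6 lay within the NPC range, mC3 was below it, and Astro_129 was far below it. The log2 fold change was -0.41 ± 1.15 (SE), -0.09 without Astro_129 and 0.09 without F5, which turns its direction. In the Ch clones it was at 11.9 CPM in Ch3, 43.6 in Ch5, 31.6 in Ch7 and 47.8 in Ch8. Anxa2, which encodes the annexin bound by S100a10, was at 276, 210, 37.7, 105 and 106 CPM in Astro_129, C2, G4, mC3 and mE6, with its highest value in the library with the fewest S100a10 reads; it was picked out after its values were seen.

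S100a11, a partner of annexin A1, was at 66.2, 51.8, 84.7, 34.2 and 43.7 CPM in astrocytes and 65.02, 34.6 and 40.8 CPM in NPCs, and the groups overlapped widely (log2 fold change 0.26 ± 0.33, SE; 0.02 without G4 and 0.57 without F5). S100a16 was at 30.2, 41.7, 48.1, 24.1 and 41.4 CPM in astrocytes and 36.6, 9.06 and 5.92 CPM in NPCs. Its log2 fold change of 1.11 ± 0.57 (SE) was 2.31 without F5, the NPC clone that had a level like the astrocytes, and 0.63 without mG6. S100a1, a regulator of calcium release and uptake in muscle, was at 0.139, 1.60, 0.143, 1.30 and 0.321 CPM in astrocytes and 0.520, 0.0675 and 0.135 CPM in NPCs, with overlap (log2 fold change 1.52 ± 1.06, SE). S100a6, which binds the calcyclin-binding protein Cacybp, was at 0.182, 0.489, 0.0130, 0.595 and 0.354 CPM in astrocytes and 0.251, 0.162 and 0.123 CPM in NPCs, also with overlap (log2 fold change 0.86 ± 0.86, SE; 0.53 without mC3 and 1.19 without F5). Leaving out F5 also moved the values of S100a1, S100a4 and S100a13, to 2.76, 4.69 and 3.43. Leaving out Astro_C2 lowered S100a1 to 0.91 and S100a13 to 1.76.

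The allelic ratios could be read for 58 of the 96 pairs of a member and a clone, of which 12 were monoallelic, 9 biased and 37 biallelic. Among all autosomal genes, 5.563% of 121802 such values (6776) were monoallelic, and 1324 of these came from chromosomes that were monoallelic as a whole in a clone, namely chromosome 12 in Ch5, Ch7 and Ch8 and chromosome 18 in NPC_mG2; nothing is read from the difference, since the ratios chose the members. The median ratio of chromosome 1 was 32.7%, 32.1%, 32.6% and 32.4% in Ch3, Ch5, Ch7 and Ch8, and 34.2% in Astro_129. Whether the Ch clones arose independently of each other was not tested, so counts of clones that include them carry this limit. The number of reads and the share of them that carried an allele set how well each ratio was measured. Over all libraries this share was 83.5% for S100a10, 77.2% for S100a13, 60.4% for S100a1, 36.4% for S100a16, 36.3% for S100a6, 20.3% for S100a11, 12.7% for S100b and 0.216% for S100a4. S100a4, with 1 such read, had a ratio in 0 clones. S100a6 and S100a1, with few reads in all (303 and 356), had a ratio in 1 and 3 clones.

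**Figure D2:**
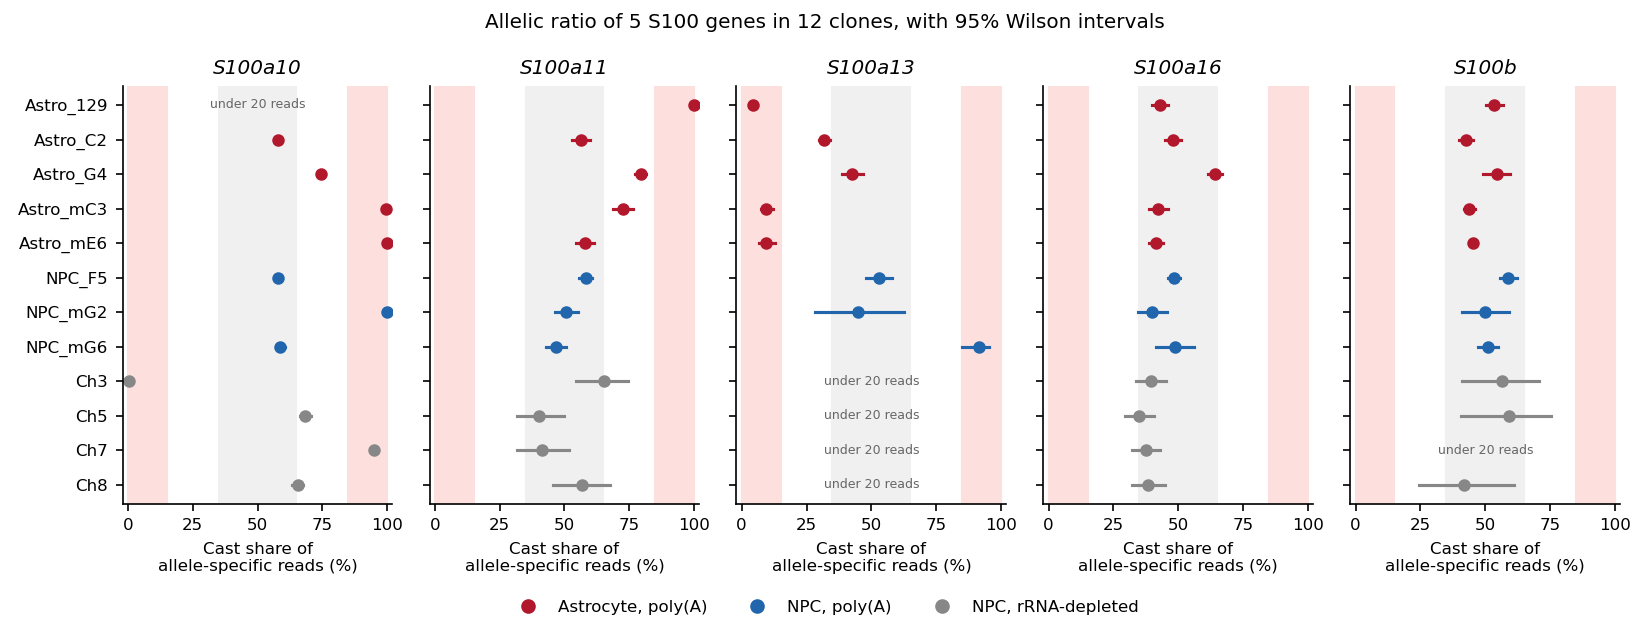
Cast share of allele-specific reads for 5 S100 genes in the 12 clones, with 95% Wilson intervals; pink marks the monoallelic and grey the biallelic range, and colours are as in the plot of levels. S100a10 lies at 0.431% in Ch3 and over 85% in mC3, mE6, mG2 and Ch7, while S100b lies between 41.7% and 59.3% in all 11 clones with a value.

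S100a10 was monoallelic in 5 of the 11 clones with a value, and from opposite alleles. In Ch3 it was expressed from the 129 allele, with 2 Cast reads among 464 (0.431%, interval 0.118 to 1.56%). It came from the Cast allele in Astro_mC3 (99.6%, 99.3 to 99.8%), Astro_mE6 (100%, 99.9 to 100%), NPC_mG2 (99.8%, 99.6 to 99.9%) and Ch7 (95.05%, 93.8 to 96.1%). In Astro_mE6, 0 of 3388 allele-specific reads were from 129. The other 6 clones expressed both alleles, at 57.9% Cast in Astro_C2, 57.7% in NPC_F5, 58.8% in NPC_mG6, 65.5% in Ch8, 68.4% in Ch5 and 74.6% in Astro_G4. All 5 monoallelic clones were male. The clones that expressed both alleles were female (C2, F5 and G4) or male (mG6, Ch5 and Ch8). In the study, female and male clones came from different embryonic stem cell lines, so sex and line cannot be told apart, and neither was tested here. Genes with such opposite values, under 15% in a clone and over 85% in another, were 156 of the 9210 autosomal genes with a ratio in at least 10 clones, 1.694%. Genes on chromosomes 12 and 18, which were monoallelic as a whole in the clones named above, were kept in this count.

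Levels of each allele were read as CPM of allele-specific reads, with all reads on genes as the total and no TMM factor. The Cast allele of S100a10 was at 40.3 in Astro_C2, 41.6 in Astro_G4, 24.6 in Astro_mC3 and 36.1 in Astro_mE6, and the 129 allele at 29.3, 14.2, 0.0894 and 0. In the NPCs F5, mG2 and mG6 the Cast allele was at 46.5, 34.2 and 22.4 and the 129 allele at 34.1, 0.0572 and 15.7. In Ch3, Ch5, Ch7 and Ch8 the Cast allele was at 0.0406, 24.5, 23.4 and 24.6 and the 129 allele at 9.38, 11.3, 1.22 and 12.97. Astro_129 had 12 allele-specific reads in all, 11 of them from Cast, and so both alleles were at or below 0.125.

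**Figure D3:**
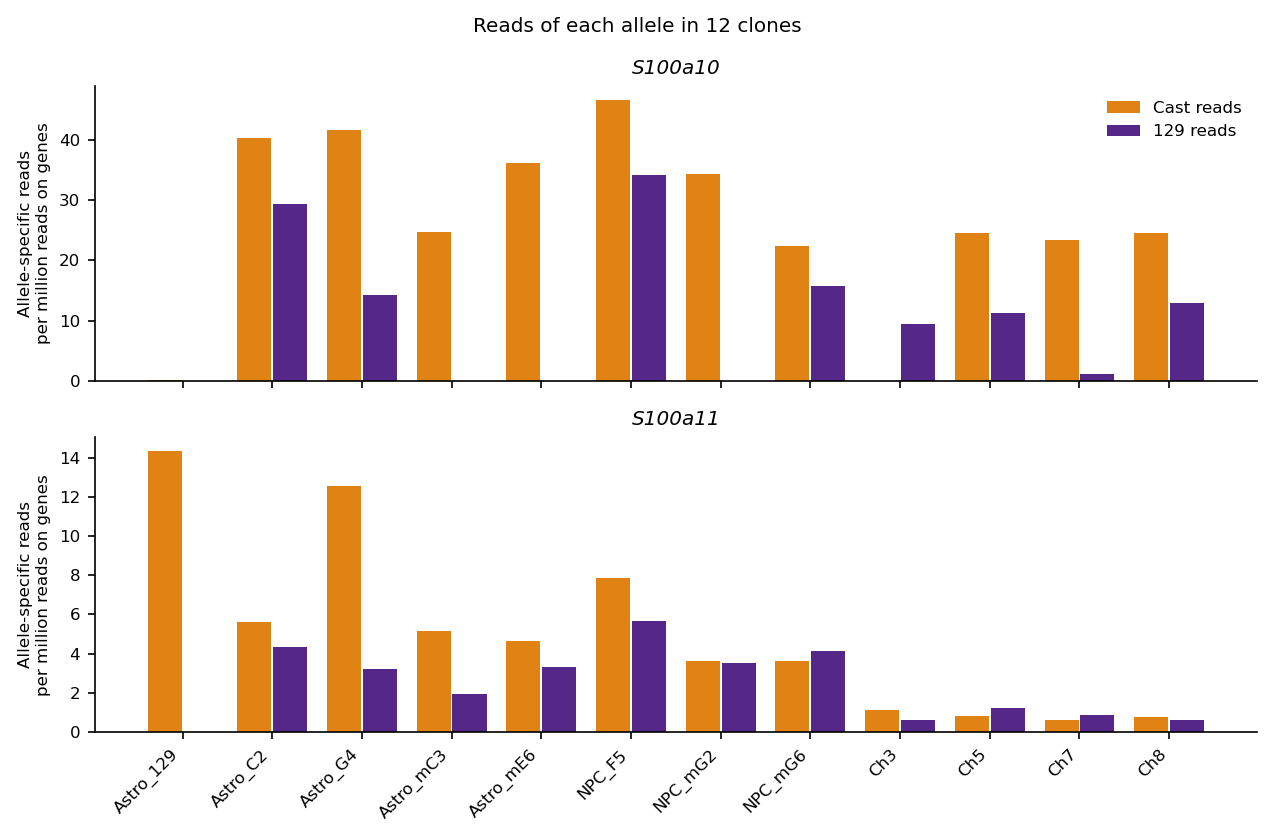
Allele-specific reads of S100a10 and S100a11 in the 12 clones, as CPM of all reads on genes; orange bars, Cast; purple bars, 129. In Astro_129 both alleles of S100a10 are near 0 and S100a11 is at 14.3 for Cast and 0.0227 for 129.

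S100a11, 28829 bases from S100a10, followed another course. It was monoallelic in Astro_129, where 1263 of 1265 reads came from Cast (99.8%, 99.4 to 100%), which is the library with 14 S100a10 reads. In Astro_mC3 and Astro_mE6, where S100a10 came from Cast, S100a11 was at 72.7% (68.8 to 76.2%) and 58.1% (54.5 to 61.6%). In Ch3, where S100a10 came from 129, S100a11 was at 65.1% (54.6 to 74.3%). It was at 50.7% in NPC_mG2, 41.4% in Ch7 and 79.4% in Astro_G4, and from 40.4% to 58.1% in the remaining clones.

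S100a13 also had opposite values. It came from the 129 allele in Astro_129 (4.36% Cast, 3.19 to 5.93%), Astro_mC3 (9.44%, 7.34 to 12.1%) and Astro_mE6 (9.26%, 6.71 to 12.7%), and from the Cast allele in NPC_mG6 (91.4%, 84.9 to 95.3%, 116 reads), whose interval reaches the limit of 85%. Astro_C2 was at 31.9%, Astro_G4 at 42.7%, NPC_F5 at 53.0% and NPC_mG2 at 44.8%, the last on 29 reads; the Ch clones had under 20 reads. S100a1, which shares its start region, was at 9.76% (5.03 to 18.1%) in Astro_mC3, in balance in Astro_C2 (27 Cast reads of 54, 37.1 to 62.9%) and at 20.7% (9.85 to 38.4%) in NPC_F5, on 82 reads in mC3 and 29 in F5. The interval of S100a1 and that of S100a13 overlapped in Astro_mC3 and not in Astro_C2 or NPC_F5.

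S100a16 and S100b were expressed from both alleles. S100a16 ranged from 34.8% in Ch5 to 64.1% in Astro_G4 with a median of 41.7% over 12 clones, and outside Astro_G4 its highest value was 48.6%. S100b ranged from 41.7% in Ch8 to 59.3% in Ch5 with a median of 50.9% over 11 clones, on 24 to 6436 reads. S100a6 was read in Astro_mC3 only, at 91.7% Cast (74.2 to 97.7%) on 24 reads.

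Each Ch clone has 2 libraries, which the study treats as biological replicates; how far apart in culture they were is not stated in the labels. Their sum was among the values that chose the members, so a ratio near 0% or 100% in the sum fixes both libraries near that value, as for S100a10 in Ch3 and Ch7. The libraries differed by more than sampling noise in their counts (chi-square per degree of freedom from 10.6 in Ch7 to 60.9 in Ch8). By Fisher's exact test, two-sided, 0 of 12 comparisons of a member were called after Benjamini-Hochberg adjustment, against 0.3215% called of 42611 comparisons of all genes. An unadjusted p under 0.05 was found in 0 of the 12 and in 4431 of the 42611, and nothing particular to the members follows from this. The 12 include S100a10 in Ch3 and Ch7, where the sum had fixed both libraries. No stability of the members' ratios is read from the counts. S100a10 was at 0% Cast (0 of 188 reads) and 0.725% (2 of 276) in the libraries of Ch3, and at 94.8% and 95.3% in those of Ch7. It was at 66.3% and 70.5% in Ch5 (Fisher's exact p = 0.054, adjusted p = 0.49) and at 66.5% and 64.6% in Ch8. Over the 12 comparisons the difference ranged from 0.498 to 13.4 percentage points with a median of 5.90, and S100a11 and S100a16, with 28 to 176 reads a library, had the widest; the difference that could be detected at this depth was not computed.

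The nearest genes around S100a10 with a ratio in at least 10 clones were compared with it clone by clone. On the side of lower coordinates these were S100a11, S100a16, Snapin and Ilf2, and on the other side Them4, Lingo4, Tdrkh and Mrpl9, from 28829 to 3066738 bases away. S100a13, which lies between S100a16 and Snapin and varied from 4.36% to 91.4%, has a ratio in 8 clones and is not among them. S100a10 had an SD of 29.3 percentage points over its 11 clones. S100a11 had 17.0, and the other 7 had between 4.28 (Them4) and 8.51 (Lingo4). In Ch3, where S100a10 was at 0.431%, Ilf2, Snapin, S100a16 and S100a11 were at 50.3%, 39.5%, 39.3% and 65.1%. Them4, Lingo4, Tdrkh and Mrpl9 were at 54.0%, 76.9%, 51.4% and 52.8% there. In Astro_mE6, where S100a10 was at 100%, Ilf2, Snapin, S100a16 and S100a11 were at 52.9%, 40.5%, 41.2% and 58.1%. Them4, Tdrkh and Mrpl9 were at 52.9%, 44.7% and 49.7% in that clone, and Lingo4 had no value. Lingo4 was over 85% in 3 clones (Astro_G4, NPC_mG2 and NPC_mG6), and its ratios rest on 20 to 332 reads. Ilf2, Snapin, S100a16, Them4, Tdrkh and Mrpl9 were highest in Astro_G4, at 58.1% to 70.9%.

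The autosomal genes with ratios most like those of S100a10, by mean absolute difference over its 11 clones among 8717 genes, were Ddx19b (15.3 percentage points), Htra1 (16.6), Pax9 (16.6), Nrgn (17.6) and Pde5a (17.6), against a median of 30.6. Ddx19b, an RNA helicase gene, shared values near 100% in Astro_mE6 (96.6%) and NPC_mG2 (100%) but was at 64.6% in Astro_mC3, 58.1% in Ch7 and 53.4% in Ch3. Pax9, a transcription factor gene, lies on chromosome 12, whose median ratio was 100% in Ch5, Ch7 and Ch8. All 5 were at 33.3% Cast or more in Ch3, and Pde5a had that lowest value.

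Chromosome 3 as a whole was shifted in Astro_G4, where the median ratio of its genes was 66.1%. In the other 11 clones the median was between 48.9% and 49.7%. The shift ran along the chromosome: in 16 windows of 10 Mb the median in Astro_G4 was between 60.3% and 68.1%, and in the 176 windows of the other clones between 42.3% and 56.3%. Chromosome 10, which carries S100b, was at 48.4% in Astro_G4. The other 18 autosomes of this library ranged from 44.2% to 65.2% with a median of 49.2%, so chromosome 3 was the highest but not the only autosome away from balance. Chromosome 18 was at 65.2%, close to chromosome 3, and chromosome 12 at 62.4%.

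**Figure D4:**
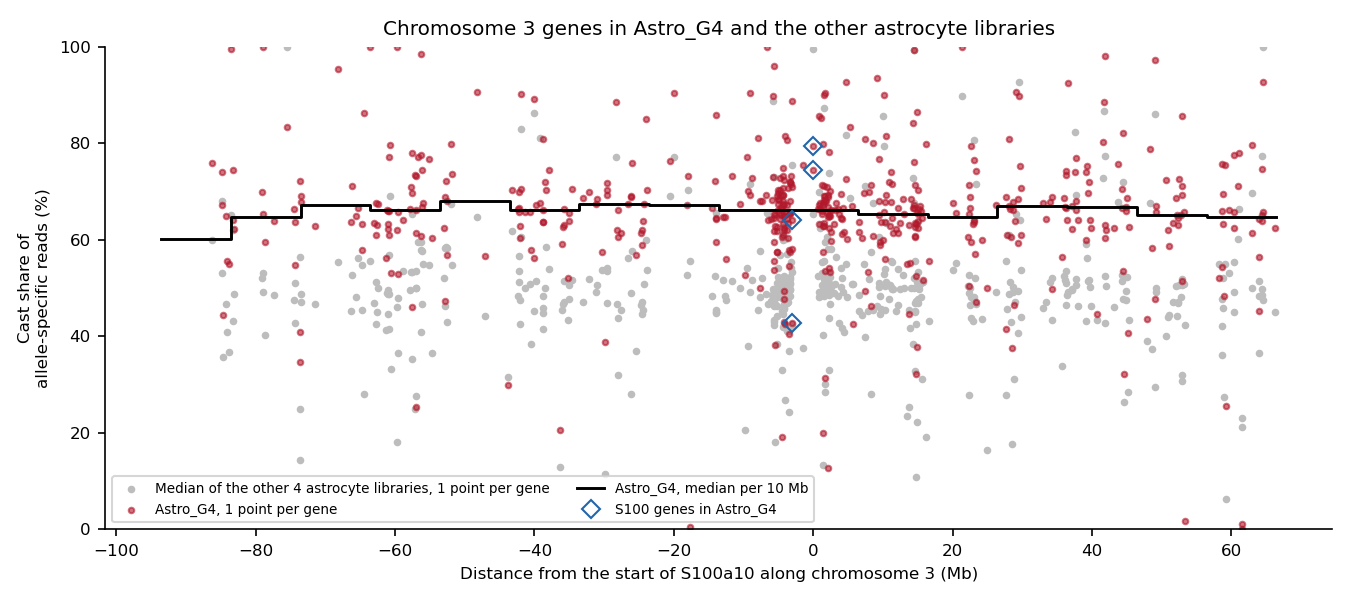
Cast share of chromosome 3 genes by distance from the start of S100a10; red points, Astro_G4; grey points, median of the other 4 astrocyte libraries; black line, median of Astro_G4 per 10 Mb; blue diamonds, S100 genes in Astro_G4. The black line stays between 60.3% and 68.1%.

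The level of reads differed by allele in the same library. For each gene, Astro_G4 was set against the median of the other 4 astrocyte libraries. Over 437 chromosome 3 genes, Cast reads were at a median log2 ratio of 0.84, against -0.15 for 8263 genes of other autosomes. Over 439 genes, 129 reads were at -0.20, against -0.17 for 8241 genes of other autosomes. For all reads, the values were 0.43 over 440 genes and -0.11 over 8310. Relative to the other autosomes, this is 1.99-fold for Cast reads, 0.980-fold for 129 reads and 1.46-fold for all reads, in 1 library and with no replicate.

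The members on chromosome 3 did not all sit at the level of the chromosome in Astro_G4. S100a11 (79.4%, 77.1 to 81.6%) and S100a10 (74.6%, 73.3 to 75.8%) were above the chromosome's 66.1%. S100a16 (64.1%, 61.3 to 66.7%) had an interval that holds it, and S100a13 (42.7%, 38.6 to 46.9%) was below it. The median over the other astrocyte libraries with a value was 65.4% for S100a11, 42.6% for S100a16, 9.35% for S100a13 and 99.6% for S100a10. Astro_G4 was above this median for S100a11, S100a16 and S100a13 and below it for S100a10. Astro_129 (99.8%) was higher than Astro_G4 for S100a11, and Astro_C2 (57.9%) was lower for S100a10. Cast reads of S100a11, S100a16 and S100a13 were at log2 ratios of 1.22, 0.87 and 2.33 to the median of the other 4 astrocyte libraries, and 129 reads at 0.30, -0.23 and -1.08. The other 4 were not all on the same side of Astro_G4: Cast reads of S100a13 were at 7.37 CPM in Astro_C2 against 2.88 in Astro_G4, and those of S100a11 at 14.3 CPM in Astro_129 against 12.5. S100a10 had 0.46 for Cast reads. Its 129 reads were at 14.2 CPM in Astro_G4, 29.3 in Astro_C2 and at or below 0.0894 in the other 3, so no ratio is given. S100b, at 54.4% (49.2 to 59.6%), had log2 ratios of -1.91 for Cast and -2.56 for 129 reads, both lower in value.

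A list of 36 genes, taken as encoding proteins that S100 proteins bind or that receive them, was read from the fit of all genes. Of these, 33 were tested. In astrocytes 7 rose and 2 fell, and 24 were not called. The shares over all 18192 genes were 12.97% and 12.55%. The median log2 fold change was 0.42 over the list and 0.08 over all genes. Nothing particular to the list follows from these shares.

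**Figure D5:**
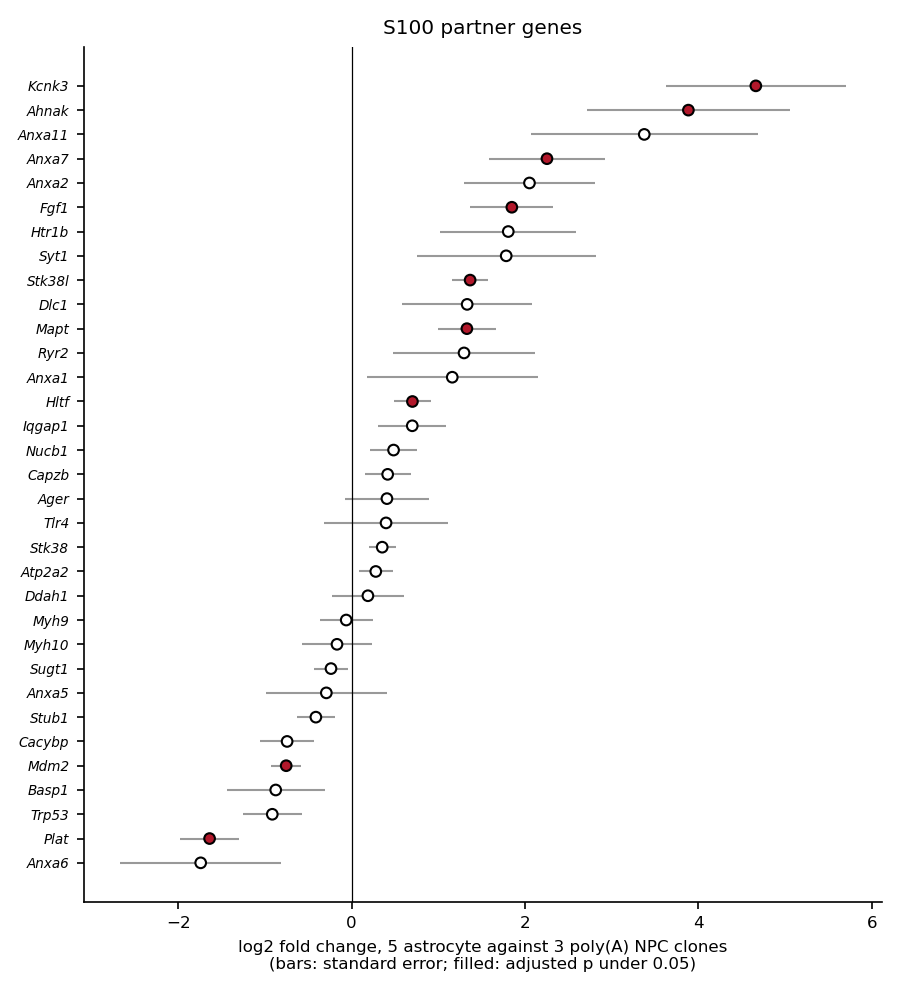
Log2 fold change of 33 S100 partner genes, 5 astrocyte against 3 poly(A) NPC clones; bars are standard errors and filled points have an adjusted p under 0.05. Kcnk3 is the highest at 4.66 and Plat the lowest of the filled points at -1.64.

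Among the genes that rose, Kcnk3, Ahnak, Fgf1 and Stk38l are linked to different S100 proteins, and no such link is given here for Anxa7, Mapt and Hltf. Kcnk3, a potassium channel whose transport S100a10 assists, was at 0.772, 8.28, 1.957, 2.99 and 8.63 CPM in Astro_129, C2, G4, mC3 and mE6 and at or below 0.324 CPM in the NPCs (log2 fold change 4.66 ± 1.04, SE, edgeR adjusted p = 0.014). Ahnak, a giant scaffold protein bound by the complex of S100a10 and annexin A2, was at 92.4, 174, 46.9, 29.2 and 5.46 CPM in the same order. Its NPC values were 0.938, 5.29 and 7.91 CPM, so that mE6 overlapped them (3.88 ± 1.17, adjusted p = 0.042). Fgf1, the growth factor released with S100a13, was at 419.3, 1205, 782, 822 and 1129 CPM in astrocytes and 157, 149.5 and 419.4 CPM in NPCs, so that Astro_129 lay just under NPC_mG6 (1.85 ± 0.48, adjusted p = 0.025).

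For the other genes that rose, Anxa7, Stk38l, Mapt and Hltf, all 5 astrocyte libraries were above all 3 NPC libraries. Anxa7, an annexin, was at 34.2, 46.1, 65.7, 46.5 and 58.7 CPM in astrocytes and 24.1, 3.68 and 3.85 CPM in NPCs, a log2 fold change of 2.25 ± 0.67 (adjusted p = 0.039). Stk38l, a kinase of the NDR family that S100b binds, was at 53.2, 87.3, 63.7, 84.7 and 80.2 against 27.1, 27.2 and 31.6 CPM (1.37 ± 0.21, adjusted p = 0.0032). Mapt, which encodes tau, was at 8.71, 13.8, 13.9, 14.2 and 8.58 against 6.47, 4.35 and 3.30 CPM (1.33 ± 0.33, adjusted p = 0.022). Hltf, a chromatin remodeller, was at 46.9, 35.3, 48.8, 33.1 and 30.3 against 21.4, 26.5 and 23.8 CPM (0.70 ± 0.21, adjusted p = 0.043).

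Plat and Mdm2 fell, each in 5 of 5 astrocyte libraries. Plat, the tissue plasminogen activator that S100a10 can bind, was at 179, 134, 66.8, 69.9 and 86.0 CPM in astrocytes and 302, 405 and 294 CPM in NPCs (log2 fold change -1.64 ± 0.34, adjusted p = 0.011). Mdm2, the ubiquitin ligase of p53, was at 88.8, 84.99, 92.2, 107.8 and 100.4 CPM in astrocytes and 121.0, 174 and 185 CPM in NPCs, with a log2 fold change of -0.75 ± 0.17 (adjusted p = 0.016). Anxa2 was higher in value in astrocytes (2.05 ± 0.76) and did not pass (adjusted p = 0.079). Under 12 alternative analyses Stk38l and Plat were called in all 12, Mdm2 in 11, Kcnk3 and Fgf1 in 10, Mapt in 8, Anxa7 in 6, Ahnak in 4 and Hltf in 3; leaving out C2, mC3, F5, mG2 or mG6 brought the number that rose from 7 to 3, 4, 3, 2 or 2, and the number that fell from 2 was 4 without Astro_129 and 1 without mG2.

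Of 12 other genes listed whose symbols begin with S100, 9 were counted. S100pbp, which encodes an S100P-binding protein and is not itself an S100 family gene, was the only gene of them above 1 CPM in a library. It was at 54.4, 36.1, 40.7, 39.3 and 32.7 CPM in Astro_129, C2, G4, mC3 and mE6 and at 38.2, 55.8 and 59.3 CPM in F5, mG2 and mG6. The groups overlapped (log2 fold change -0.33 ± 0.22, SE). Among the rest, S100a14 reached 0.714 CPM in Astro_C2, and S100a9 had 0 reads in all 16 libraries.

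The genes whose level followed S100b most closely over the 8 poly(A) libraries, among 18191 genes, were Serhl, Wnt11, Tnmd, Tnr and Il23a, with root mean square differences of centred log2 CPM of 0.63 to 0.69, against a median of 1.63. Tnr, which encodes the extracellular matrix protein tenascin R, was at 52.0, 14.6, 12.4, 49.95 and 112 CPM in the 5 astrocyte libraries and at 17.2, 2.71 and 12.001 CPM in the NPCs. Serhl was highest in mE6 (31.8 CPM) and lowest in mG2 (2.79 CPM), as was S100b. Wnt11, Tnmd and Il23a were at or below 3.04 CPM in these libraries.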

How the data were processed

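The data are allele-specific RNA-seq libraries of mouse NPC and astrocyte clones. Per the methods of the study, the authors aligned paired reads with TopHat (2.1.0) and Bowtie2 to GRCm38 (mm10) masked at strain SNPs, split them by allele with SNPsplit and counted pairs per gene with featureCounts (1.5.1) by strand. The counts the authors deposited are unnormalized and come as Cast, 129 and all reads. A Cast fraction (allelic ratio) is deposited too, where a gene has at least 10 allele-specific reads; ratios were computed again from the counts.

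All reads of the 5 astrocyte and 3 poly(A) NPC libraries were compared with edgeR (4.0.16; quasi-likelihood test, TMM, expression filter, Benjamini-Hochberg adjusted p under 0.05), with DESeq2 (1.42.0) as an alternative, in R 4.3.3. Each clone is a replicate. The SE is the absolute log2 fold change over the square root of F. For ratios, both libraries of each Ch clone were added up; they were also compared by Fisher's exact test. The rest used Python (3.11.15) with matplotlib (3.10.9), scipy (1.17.1), pandas (2.3.3) and numpy (2.4.6). The edgeR and Fisher steps were tested on simulated data. With 5 and 3 clones, a gene that is not called may still differ. Symbols were found for 32722 of 50600 identifiers; positions and start regions are from RefSeq (GRCm38.p6), and exon lengths from GENCODE M1 on NCBIM37, used as lengths only.

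The members and lists were chosen with earlier results of these data known. Named are the members, other listed genes with an S100 symbol that have at least 1 CPM in a library, and partner genes called. So are the 4 nearest genes on each side of S100a10 that have a ratio in 10 or more clones. The 5 genes most like S100a10 in ratio and the 5 most like S100b in level (log2 of CPM plus 0.1) are named as well. Dosage required 50 allele-specific reads. The start motifs were chosen after seeing the data. Alternatives were another tool, normalization or filter, sex as a covariate, leaving out each library, other read minimums and limits, 1 library per Ch clone, and for chromosome 3 a median without the members and pooled reads.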

Additional observations from a re-analysis of the deposited data

Results flagged for a closer look

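In the group of 5 astrocyte libraries, each of 49 measures was examined for a library far from the others, where the gap to the nearest other library exceeds 0.71 of the whole range. This was so in 9 of the 49. Chance does this in about 1 in 20 groups of normally distributed values. Whether the measures, among them the summed CPM of marker lists, are distributed in this way was not checked. That rate also says nothing about the values that chose the members or follow from them. They are the chromosome 3 shift of Astro_G4 with its neighbours Ilf2, Mrpl9 and Them4, and the level of S100a13. Ddx19b, picked for its likeness to S100a10, belongs with them. These are given as a description.

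Astro_G4 stood apart in 5 of them. Its median Cast share on chromosome 3 was 66.1%, with the nearest other library at 49.7%. The neighbours Ilf2, Mrpl9 and Them4 were at 70.9%, 67.1% and 66.3% there, against 54.3%, 50.9% and 54.5% in the nearest other library. The microglia and macrophage list summed to 24.0 CPM, against 10.3 CPM in Astro_C2.

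Astro_C2 stood apart in 3. S100a13 was at 30.5 CPM, with Astro_129 next at 12.2 CPM. The astrocyte list summed to 1866 CPM, with Astro_G4 next at 3835 CPM and the NPC libraries at 1178 to 1918 CPM. The fibroblast and mesenchymal list summed to 227 CPM, with Astro_G4 next at 41.9 CPM. In Astro_mE6, Ddx19b was at 96.6% Cast, against 66.8% in Astro_G4.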

How the results depend on the processing

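No paired analysis was possible because the astrocyte and poly(A) NPC libraries come from different clones. Leaving out 1 of the 8 poly(A) libraries gave 1000 to 2505 genes that rose (2360 with all) and 1269 to 2344 that fell (2284 with all); the number that rose was 1227 without F5, 1000 without mG2 and 1205 without mG6, and the number that fell was 1440 without F5 and 1269 without mG2. On the partner list the same alternatives gave 2 to 7 genes that rose (7 with all) and 1 to 4 that fell (2 with all). With DESeq2 the counts were 3280 and 3000 over all genes and 10 and 3 on the list. The log2 fold change of S100a10 was 0.0861 without F5 and ranged from -0.83 to 0.09; the cause was not tested. The other 7 members kept their sign under the 12 alternatives, with S100a4 between 3.27 and 4.69 and S100b between 1.21 and 2.43. With other read minimums, limits or Ch libraries, member values were monoallelic in 11 to 16 and biallelic in 33 to 39 cases, and S100a10 in 5 or 6 clones. The Fisher counts were 136 and 151 with minimums of 10 and 50 reads, and 0 members were called. The median of chromosome 3 in Astro_G4 was 65.1% to 66.1%. Depth limits the ratios of S100a1 and S100a6, which have few reads, of S100a4, of whose reads few carry an allele, and the Ch values of S100b and S100a13.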

Other observations

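Some ratios under the minimum of 20 allele-specific reads were at an extreme. S100a6 had 15 of 15 reads from Cast in Astro_mE6 and 6 of 6 in NPC_mG6, 0 of 6 in NPC_F5, and 1 of 11 in Ch7. S100a1 had 1 Cast read of 19 in Astro_mE6 and 0 of 7 in Astro_129, clones in which S100a13 was at 9.26% and 4.36% Cast. S100b in Ch7 had 8 Cast reads of 10. S100a13 had 4 of 8, 0 of 6, 3 of 7 and 3 of 9 reads from Cast in Ch3, Ch5, Ch7 and Ch8. These counts are too small to place a clone in a class.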
